A study of Mus musculus with 8 samples.

Results

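The fibroblast growth factor (FGF) genes described here were 5 secreted ligands (Fgf4, Fgf5, Fgf8, Fgf15 and Fgf17) and the 4 receptor tyrosine kinases that bind FGFs (Fgfr1, Fgfr2, Fgfr3 and Fgfr4). These 9 genes were taken by symbol from the 22963 genes whose RefSeq transcripts had values. RNA was sequenced from the male mouse embryonic stem cell line Bruce 4 (C57BL/6J, wild type) after 2 weeks in 1 of 4 culture conditions. They were laminin-511 coating (LN511) with 2i medium, gelatin with 2i medium, LN511 with Std medium and gelatin with Std medium, with 2 libraries each. The labels do not give the composition of either medium, and 2i is the usual name of a medium with inhibitors of the kinases MEK and GSK3. All 8 libraries came from 1 line, so the spread between replicates is a spread within that line.

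FGF ligands bind their receptors together with heparan sulfate chains on the cell surface. The receptors then activate the RAS, RAF, MEK and ERK kinases through the docking protein FRS2 and the adaptor GRB2. In mouse embryonic stem cells and in the early embryo, FGF4 is an autocrine ligand whose ERK signal makes cells competent to leave the naive pluripotent state. FGF5 is a marker of the later, epiblast-like state, and FGFR1 and FGFR2 are the receptors that respond to FGF4 in the blastocyst. An inhibitor of MEK acts on this pathway below the receptors.

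The promoters of 2 ligands are shown because they belong to the ligand with the highest level in every library, Fgf4, and to the ligand listed at 0 in all 4 libraries grown in 2i, Fgf5. Each runs from 250 bases before to 49 bases after the first transcribed base, which is position 1 (RefSeq, GRCm38.p6). RefSeq promoters were found for 5 of the 9 genes. In the Fgf4 promoter (chr7:144861136-144861435, plus strand), capitals mark 2 GC boxes (GGGCGG, starting at -214 and -188) and a CCAAT box that reads on the minus strand (at -106).
Fgf4 promoter: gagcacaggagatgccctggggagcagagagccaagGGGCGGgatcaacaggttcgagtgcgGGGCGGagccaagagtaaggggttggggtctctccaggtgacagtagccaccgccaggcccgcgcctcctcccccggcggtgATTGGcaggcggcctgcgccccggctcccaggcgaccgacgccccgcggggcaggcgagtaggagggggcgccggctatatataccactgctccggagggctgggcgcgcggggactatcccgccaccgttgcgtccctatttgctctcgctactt
In the Fgf5 promoter (chr5:98253934-98254233, plus strand), capitals mark a GC box that reads on the minus strand (at -74) and the letters TATAAA (at 35). The TATAAA match lies after the first transcribed base. In both promoters only exact letter matches are marked, and their use in these cells was not tested.
Fgf5 promoter: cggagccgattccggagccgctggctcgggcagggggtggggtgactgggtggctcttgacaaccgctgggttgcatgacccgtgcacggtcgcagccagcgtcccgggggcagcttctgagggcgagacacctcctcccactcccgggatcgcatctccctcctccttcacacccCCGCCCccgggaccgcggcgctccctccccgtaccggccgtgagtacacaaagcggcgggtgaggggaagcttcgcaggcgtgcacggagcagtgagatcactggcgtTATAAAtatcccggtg
Searched on both strands of 32851 mouse promoters of this length, the GC box was found in 35.7% and CCAAT in 37.4%. TATAAA was found in 13.6%, and the octamer ATGCAAAT, found in neither promoter shown, in 1.74%. No 2 of these motifs share letters in these promoters.

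Fgf4 dominated the ligands in every library and Fgfr1 dominated the receptors. Levels are given in FPKM (fragments per kilobase of transcript and per unit of library depth), summed over the RefSeq transcripts of a gene. Fgf4 made up 88.1% to 98.7% of the summed ligand FPKM of a library and stood 12.7 to 76.8 times above the next ligand. That next ligand was Fgf17 in 5 libraries and Fgf15 in 3, counting these 5 ligands only. Among the libraries with Fgf17 next, ligands outside these 5 stood above it in 3, namely Fgf10 in replicate 1 of LN511 2i (1.47 FPKM), Fgf3 in replicate 2 of LN511 2i (3.86), and both in replicate 1 of gelatin 2i (2.24 and 2.46). By group the Fgf4 share was 97.9% ± 1.20 in LN511 2i, 95.3% ± 1.97 in gelatin 2i, 92.4% ± 5.71 in LN511 Std and 90.0% ± 2.65 in gelatin Std (SD, n = 2 each). Fgfr1 made up 77.6% to 96.3% of the summed receptor FPKM and stood 5.52 to 36.3 times above the next receptor. Its share was 95.7% ± 0.85 in LN511 2i, 94.1% ± 1.04 in gelatin 2i, 89.6% ± 8.13 in LN511 Std and 85.8% ± 11.6 in gelatin Std (SD, n = 2 each). Shares were not tested.

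**Figure D1:**
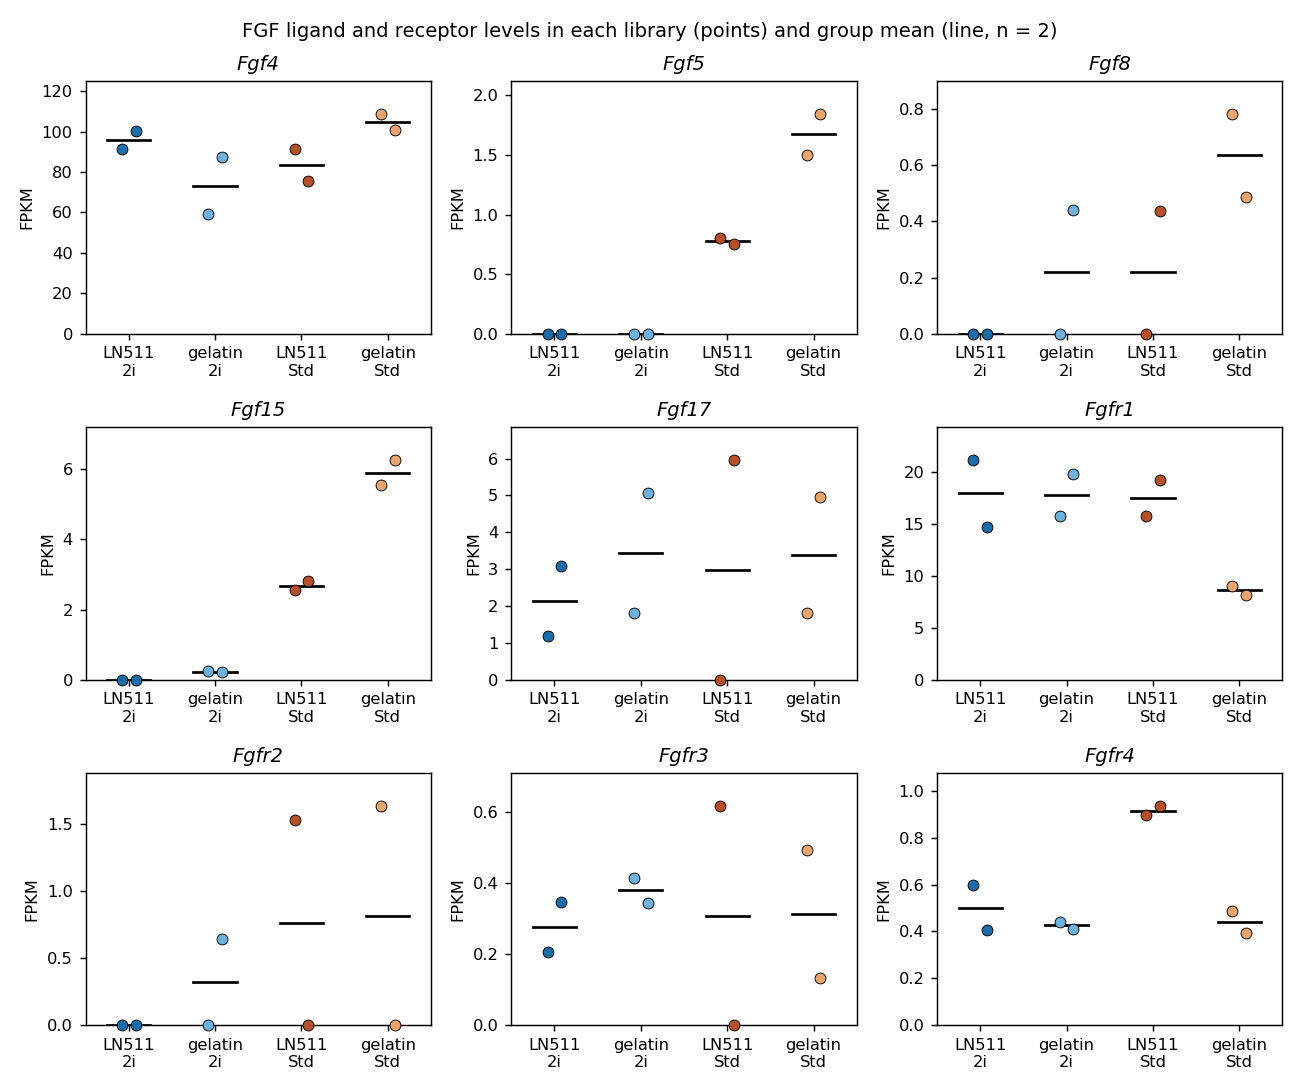
FPKM of each FGF ligand and receptor (vertical axis, own scale per panel) in the 8 libraries by group (horizontal axis), with points for libraries and a line for the mean of 2. Fgf4 lies between 59.2 and 108.7 FPKM in all libraries, Fgf5 and Fgf15 are higher in Std than in 2i, and the gelatin Std libraries have the lowest Fgfr1.

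The depth of the libraries was estimated from low FPKM values, which moved in steps worth 1 fragment. Steps were read only within a fixed window, 0.3 to 0.5 FPKM times kilobase, which limits the depths that could be found. Within it, these steps put the libraries at about 2300000 to 2740000 fragments, 1.19-fold apart. Because of the window, this does not show by itself that the depths were similar. The fragment numbers below come from these steps and transcript lengths, are approximate and may be too low. Replicate libraries correlated at r = 0.959 to 0.964 across genes, against 0.907 to 0.955 for libraries of different groups. All 6 embryonic stem cell markers examined were expressed, with sums of 1583 to 2247 FPKM. These sums hide changes in both directions. In 2i against Std, the limma test described below called 3 of the 6 higher and 1 lower on gelatin. On LN511 it called 3 higher and 2 lower. The shares over all genes were 15.4% and 18.5%. Pou5f1, which encodes the core pluripotency factor OCT4, averaged 1177 ± 95.5 FPKM in LN511 2i, 1059 ± 34.3 in gelatin 2i, 1093 ± 28.1 in LN511 Std and 982 ± 46.9 in gelatin Std (SD, n = 2 each).

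Differences were tested with limma on log2(FPKM + 1), a scale that understates the change of low genes, with p adjusted by the Benjamini-Hochberg method over every gene of a fit and a threshold of 0.05 for a call. Of the 9 genes, 4 entered the first fit (Fgf4, Fgf5, Fgfr1 and Fgfr2). It held the 10278 genes left after a filter on low values and the removal of genes with doubtful zeros. Fgf15 and Fgf17 had been set aside there because a 0 stood beside values of 5 FPKM or more, and were tested among 11244 genes with such genes kept. Fgf8, Fgfr3 and Fgfr4 stayed below 1 FPKM in every library and were tested in a fit of 14877 genes with no filter on low values. Fgf5 had passed that filter (1 FPKM or more in 2 libraries) only through gelatin Std, and Fgf15 only through Std libraries. These are the groups where they were highest, so their calls are not independent of the filter. In 2i against Std on gelatin, 3 of the 9 genes were called, 2 of 4 in the first fit, 1 of 2 in the second and 0 of 3 in the third, where 15.4%, 12.6% and 9.87% of all genes were called. In 2i against Std on LN511, 1 of the 9 was called, Fgf15, in the fit that called 15.1% of genes. The other fits called 18.5% and 12.0% of genes there and none of these 9. In LN511 against gelatin, no gene of the 9 was called by limma in Std (4 at an unadjusted p under 0.05, lowest adjusted p = 0.104). In 2i none was called either (0 at an unadjusted p under 0.05, lowest adjusted p = 0.456). The 3 fits called 2.1%, 1.81% and 1.6% of genes for coating in Std, and 0.0195%, 0.374% and 0.101% in 2i. For the interaction, the difference of the medium effect between coatings, 0 of 9 were called (2 at an unadjusted p under 0.05), with 0.185%, 0.471% and 0.208% of genes called.

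**Figure D2:**
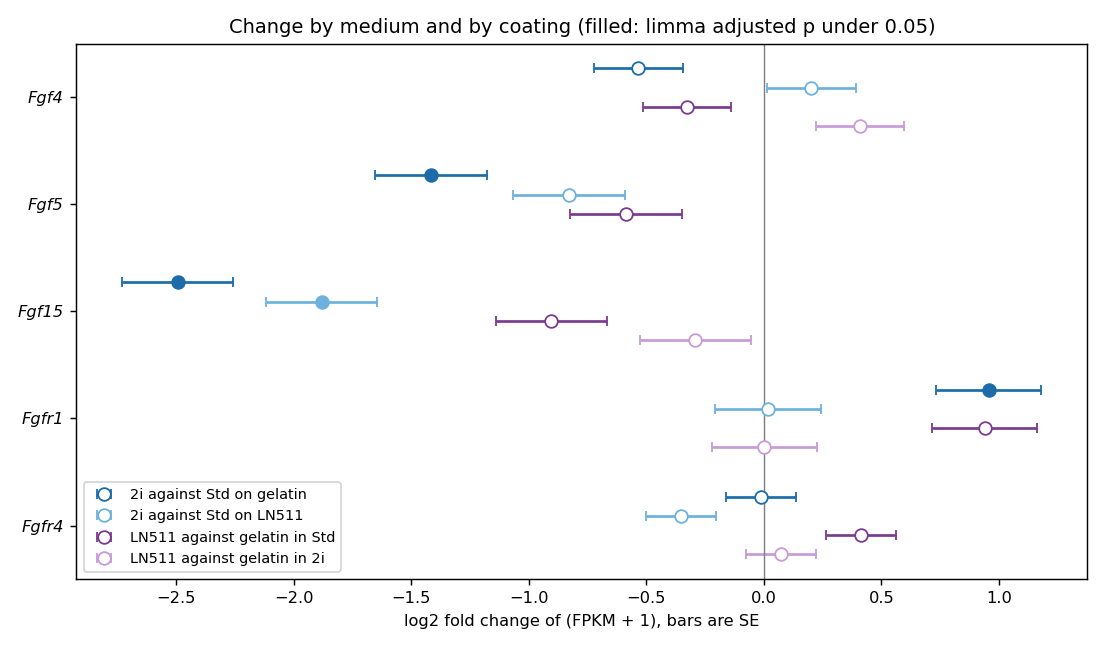
Log2 fold change of FPKM + 1 (horizontal axis; bars are SE) for 5 genes in 4 comparisons by colour, with filled points at a limma adjusted p under 0.05. Filled points are Fgf5, Fgf15 and Fgfr1 for 2i against Std on gelatin and Fgf15 for 2i against Std on LN511; Fgf5, at 0 in all 2i libraries, has no point for coating in 2i.

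Fgf4 (chromosome 7, 144861386 to 144865245, plus strand, GRCm38.p6) has 1 RefSeq transcript. It stood at 91.4 and 100.4 FPKM in LN511 2i, 59.2 and 87.4 in gelatin 2i, 91.4 and 75.7 in LN511 Std and 108.7 and 100.7 in gelatin Std. These values rest on about 459 to 759 fragments, and Fgf4 lay between the 89.0 and 94.2 percentile of the 11244 genes that passed the filter on low values. On gelatin, both 2i libraries were below both Std libraries, while on LN511 the media overlapped. Such a separation was common. Over all genes of the first fit, both replicates were higher in 2i than in Std in 29.9% on gelatin and 27.7% on LN511, and lower in 29.3% and 32.0%. For LN511 against gelatin, both were higher in 28.7% in Std and 22.2% in 2i, and lower in 20.7% of genes in each.

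No Fgf4 difference passed the threshold. The log2 fold change of 2i against Std was -0.53 on gelatin (SE 0.19, 95% interval -0.98 to -0.08, limma adjusted p = 0.111). On LN511 it was 0.20 (SE 0.19, interval -0.25 to 0.65, limma adjusted p = 0.511). Without replicate 2 of gelatin 2i, the gelatin value was -0.81 and passed (limma adjusted p = 0.04). Coating gave 0.41 in 2i (limma adjusted p = 0.456), with both LN511 libraries above both gelatin libraries, and -0.33 in Std (limma adjusted p = 0.462), with both below. The medium effect on LN511 minus that on gelatin was 0.74 (SE 0.27, unadjusted p = 0.0292 and adjusted p = 0.354 in limma). The 3 genes whose log2(FPKM + 1) was most like Fgf4 over the 8 libraries were Uchl5 (r = 0.943), Poc5 (r = 0.941) and Exosc9 (r = 0.925), out of 6873 genes compared.

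Fgf15, the mouse counterpart of human FGF19 and a ligand known for endocrine signalling from gut to liver and for roles in the early nervous system, was lower in 2i than in Std on both coatings. It lies next to Fgf4 on chromosome 7 (144896532 to 144900953, plus strand), 31286 bases beyond its end. It was listed at 0 and 0 FPKM in LN511 2i, 0.23 and 0.22 in gelatin 2i, 2.56 and 2.81 in LN511 Std, and 5.54 and 6.27 in gelatin Std. In fragments this is about 1 in each gelatin 2i library, 12.5 and 13.9 in LN511 Std and 23.1 and 27.9 in gelatin Std. The media did not overlap on either coating.

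In limma, Fgf15 fell by 2.49 on the log2(FPKM + 1) scale in 2i against Std on gelatin (SE 0.24, adjusted p = 0.00268). It fell by 1.88 in 2i against Std on LN511 (SE 0.24, adjusted p = 0.00537). Fgf15 had passed the filter on low values only through Std libraries. With no such filter, the limma adjusted p was 0.00442 on gelatin and 0.00869 on LN511. Both calls held without each library in turn. In Std, both LN511 libraries were below both gelatin libraries, and the difference of -0.91 (SE 0.24) did not pass the threshold (limma adjusted p = 0.163). The difference between the medium effects did not pass either (0.61, limma adjusted p = 0.573), and it was -0.59 with a pseudocount of 0.1 in place of 1. Most alike over the 8 libraries were Sephs2 (r = 0.996), Pgk1 (r = 0.994) and Acot1 (r = 0.993). A long noncoding RNA on the opposite strand, Gm26793, overlaps Fgf15 over 3157 bases, and the strandedness of the libraries is not given in the sources used here.

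Genes on both sides of this pair are given for comparison. Fgf3, a ligand on the other side that ends 18037 bases before Fgf4 starts, was at 0 and 3.86 FPKM in LN511 2i, 2.46 and 3.90 in gelatin 2i, 0 and 0.70 in LN511 Std, and 2.102 and 0.98 in gelatin Std. Ccnd1, which encodes cyclin D1, ends 28977 bases beyond Fgf15 and averaged 34.4 ± 0.56, 40.7 ± 0.50, 80.0 ± 0.92 and 45.4 ± 7.32 FPKM in the same order (SD, n = 2 each). The medium called Ccnd1 on LN511 (-1.19, SE 0.12, limma adjusted p = 0.00157) and not on gelatin (-0.15, limma adjusted p = 0.484), a difference with limma adjusted p = 0.0968. Fgf3 was called in no comparison (limma adjusted p = 0.563 on gelatin and 0.524 on LN511 for the medium).

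Fgf5 (chromosome 5, 98254184 to 98277033, plus strand) was listed at 0 in all 4 libraries of 2i. It had 0.80 and 0.75 FPKM in LN511 Std, and 1.5 and 1.84 in gelatin Std. All 4 Std libraries were above all 2i libraries, and the gelatin Std libraries were above the LN511 Std libraries. In limma, Fgf5 was lower in 2i than in Std on gelatin (log2 value -1.41, SE 0.24, adjusted p = 0.0113). Fgf5 had passed the filter on low values only through the gelatin Std libraries. With no such filter, the limma adjusted p on gelatin was 0.00318. On LN511 the value was -0.83 (SE 0.24, limma adjusted p = 0.0559). These values depend on the pseudocount, since one side is at 0, and give no fold. The gelatin call was lost without either gelatin 2i library (limma adjusted p = 0.0553 and 0.0544), and the LN511 difference passed with a pseudocount of 0.1 (limma adjusted p = 0.0342), without the filter on low values (0.0144) and with the set-aside genes kept (0.0482). For LN511 against gelatin in Std the value was -0.59 (limma adjusted p = 0.3).

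The Fgf5 levels rest on few fragments and on different transcripts in the replicates of a group. Replicate 1 of each Std group carried only the short transcript, NM_001277268 (600 bases, 2 exons), with about 1.29 fragments in LN511 Std and 2.07 in gelatin Std. Replicate 2 carried only the long one, NM_010203 (2501 bases, 3 exons), with about 5.14 and 11.3 fragments. Similar FPKM thus stood for unlike fragment numbers, because the FPKM is divided by length. The exon that separates the transcripts is exon 2 of the long one, shown in capitals between the last 20 bases of exon 1 and the first 20 bases of exon 3 (chr5:98261943-98262046 for the capitals, plus strand, GENCODE M21 on GRCm38).
Fgf5 exon 2: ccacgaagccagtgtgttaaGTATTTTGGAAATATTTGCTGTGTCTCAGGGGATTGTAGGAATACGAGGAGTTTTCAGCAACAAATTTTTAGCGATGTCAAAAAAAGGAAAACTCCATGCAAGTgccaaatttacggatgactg
Its 104 bases are not a multiple of 3, and the coding part is 363 bases in the short transcript and 792 in the long one. The genes most like Fgf5 over the 8 libraries were Pcdh1 (r = 0.989), Rad50 (r = 0.988) and Plod2 (r = 0.987).

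Markers of other cell types were low, and some sums moved with Fgf5 and Fgf15 while others did not. The summed level of 5 neuroectoderm markers, 3 of them at 1 FPKM or more in at least 2 libraries and Neurog2 at 0 throughout, was 7.84 to 8.29 FPKM in LN511 2i, 5.94 to 6.02 in gelatin 2i, 14.1 to 24.4 in LN511 Std and 12.3 to 12.5 in gelatin Std. Nes, an intermediate filament gene, made up most of that sum in Std and was called lower in 2i on gelatin (2.60 ± 0.29 FPKM in gelatin 2i against 9.51 ± 0.20 in gelatin Std, SD, n = 2 each; limma adjusted p = 0.0171, and 0.0676 to 0.0852 without any single gelatin library). The neural factor Sox1 had 3.24 ± 0.02 FPKM in gelatin 2i and 1.66 ± 0.22 in gelatin Std (SD, n = 2 each). The sum of 8 fibroblast markers, 2 of them at 1 FPKM or more in at least 2 libraries and Postn and Lum at 0, was 1.54 to 1.99 FPKM in LN511 2i, 2.18 to 2.19 in gelatin 2i, 3.54 to 3.87 in LN511 Std and 4.36 to 5.57 in gelatin Std. Its 2 tested members went opposite ways on gelatin: Thy1 had 0.36 ± 0.18 FPKM in gelatin 2i against 4.00 ± 0.65 in gelatin Std (SD, n = 2 each; limma adjusted p = 0.0064), and Pdgfrb 1.55 ± 0.25 FPKM in gelatin 2i against 0 in both gelatin Std libraries (limma adjusted p = 0.0196). Primitive endoderm markers (8, of which 2 reached that level) summed to 1.12 to 2.65, 0.87 to 2.00, 4.93 to 6.18 and 2.50 to 3.62 FPKM in the same order. Mesendoderm markers (5, of which 3 reached that level) went the other way, at 5.23 to 5.96, 9.60 to 11.6, 0.71 to 1.95 and 0.67 to 0.87 FPKM. Of these, T, Gsc and Eomes were called higher in 2i than in Std on gelatin by limma (adjusted p = 0.0208, 0.00963 and 0.00366). Trophoblast markers (6, of which 5 reached that level) summed to 6.29 to 8.04, 5.80 to 5.86, 12.4 to 16.3 and 3.28 to 3.64 FPKM, lower in 2i on LN511 and higher in 2i on gelatin. Their part in the Fgf5 and Fgf15 results was not tested, and in bulk RNA fewer cells with a transcript and less transcript per cell cannot be told apart. Otx2, a transcription factor of the epiblast-like state, averaged 0.10 ± 0.14 FPKM in LN511 2i, 1.44 ± 1.13 in gelatin 2i, 6.77 ± 0.39 in LN511 Std and 13.3 ± 1.05 in gelatin Std (SD, n = 2 each). It was called lower in 2i on gelatin (-2.63, SE 0.36, limma adjusted p = 0.00546) and on LN511 (-2.82, SE 0.36, limma adjusted p = 0.00335).

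Fgf17, a ligand of the Fgf8 subfamily, varied more within groups than between them. It had 1.19 and 3.10 FPKM in LN511 2i, 1.82 and 5.06 in gelatin 2i, 0 and 5.97 in LN511 Std, and 1.80 and 4.96 in gelatin Std. Replicate 2 was higher in 4 of 4 groups, and all groups overlapped. The lowest limma adjusted p over the 4 comparisons and the interaction was 0.833. Fgf8, a ligand of the gastrulating embryo, was at 0 and 0 FPKM in LN511 2i, 0 and 0.44 in gelatin 2i, 0 and 0.44 in LN511 Std, and 0.78 and 0.49 in gelatin Std. Only 1 of its 4 transcripts, NM_001166363, was above 0, with about 1.01 to 1.52 fragments in the 4 libraries that had it. Its lowest limma adjusted p was 0.338, and at this depth no Fgf8 difference was detectable.

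By group mean, the ligands after Fgf4 came in the following order. In both 2i groups Fgf17 came next, apart from the rest. In LN511 2i, Fgf5, Fgf8 and Fgf15 were all listed at 0, and in gelatin 2i Fgf15 and Fgf8 overlapped, as did Fgf8 and Fgf5, while Fgf15 was above Fgf5. In LN511 Std, Fgf17 and Fgf15 overlapped, with Fgf5 below Fgf15 and Fgf8 below Fgf5. In gelatin Std, Fgf15 was second and did not overlap Fgf17, while Fgf17 and Fgf5 overlapped.

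Fgfr1, the main FGF receptor of these libraries (chromosome 8, 25518759 to 25575718, plus strand), was lowest in gelatin Std. It had 21.2 and 14.7 FPKM in LN511 2i, 15.7 and 19.8 in gelatin 2i, 15.8 and 19.2 in LN511 Std, and 9.04 and 8.18 in gelatin Std. The first 3 groups overlapped one another, and both gelatin Std libraries were below all 6 others. Group means were 17.9 ± 4.59, 17.7 ± 2.88, 17.5 ± 2.42 and 8.61 ± 0.61 FPKM in the same order (SD, n = 2 each).

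In 2i against Std on gelatin, Fgfr1 rose by 0.96 on the log2(FPKM + 1) scale (SE 0.22, interval 0.42 to 1.49, limma adjusted p = 0.0341). This call was near the threshold. Leaving out replicate 1 or 2 of gelatin 2i gave limma adjusted p = 0.0772 and 0.152, and leaving out replicate 1 or 2 of gelatin Std gave 0.102 and 0.133. Leaving out replicate 1 or 2 of LN511 Std gave limma adjusted p = 0.0539 and 0.0547. On LN511 the medium difference was 0.02 (SE 0.22, interval -0.52 to 0.55, limma adjusted p = 0.97). LN511 against gelatin gave 0.94 in Std (SE 0.22, interval 0.41 to 1.47, limma adjusted p = 0.104), with no overlap, and 0.00 in 2i (interval -0.53 to 0.53, limma adjusted p = 1.0). The medium effects on the coatings differed by -0.94 (SE 0.32, unadjusted p = 0.0219 and adjusted p = 0.32 in limma). The medium effect was thus not shown to differ between the coatings. The genes most like Fgfr1 were Klc1 (r = 0.959), Stard3 (r = 0.949) and Trip10 (r = 0.941).

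The Fgfr1 sum was carried by 2 of its 3 transcripts, in shares that differed between replicates. NM_010206 had 11.5 and 14.7 FPKM in LN511 2i, 12.1 and 10.8 in gelatin 2i, 13.3 and 16.2 in LN511 Std, and 9.04 and 0 in gelatin Std. NM_001079908 had 9.64 and 0 FPKM in LN511 2i, 3.63 and 8.97 in gelatin 2i, 2.54 and 2.98 in LN511 Std, and 0 and 8.18 in gelatin Std. In gelatin Std, NM_010206 was thus at 0 in replicate 2 and NM_001079908 in replicate 1, each beside more than 5 FPKM in the other replicate. Genes were set aside for such zeros by their sums only, so Fgfr1 stayed in the test. Whether these zeros lower the Fgfr1 sum of gelatin Std, and so its call, was not tested. The replicates of gelatin Std were assigned to different transcripts at nearly the same gene level, so no difference between these transcripts is reported. They share all but 6 coding bases, at the end of exon 4 of 18, which codes for the acidic stretch between the first immunoglobulin-like domains, and also differ in the lengths of their first and last exons. The exon is shown with the 6 bases that only NM_010206 has in capitals (chr8:25557731-25557820, plus strand, GENCODE M21 on GRCm38).
Fgfr1 exon 4: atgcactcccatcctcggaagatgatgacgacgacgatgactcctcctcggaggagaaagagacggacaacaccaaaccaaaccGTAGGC
The long noncoding RNAs Gm31288 and Gm16159 overlap Fgfr1 over 26088 and 7411 bases.

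**Figure D3:**
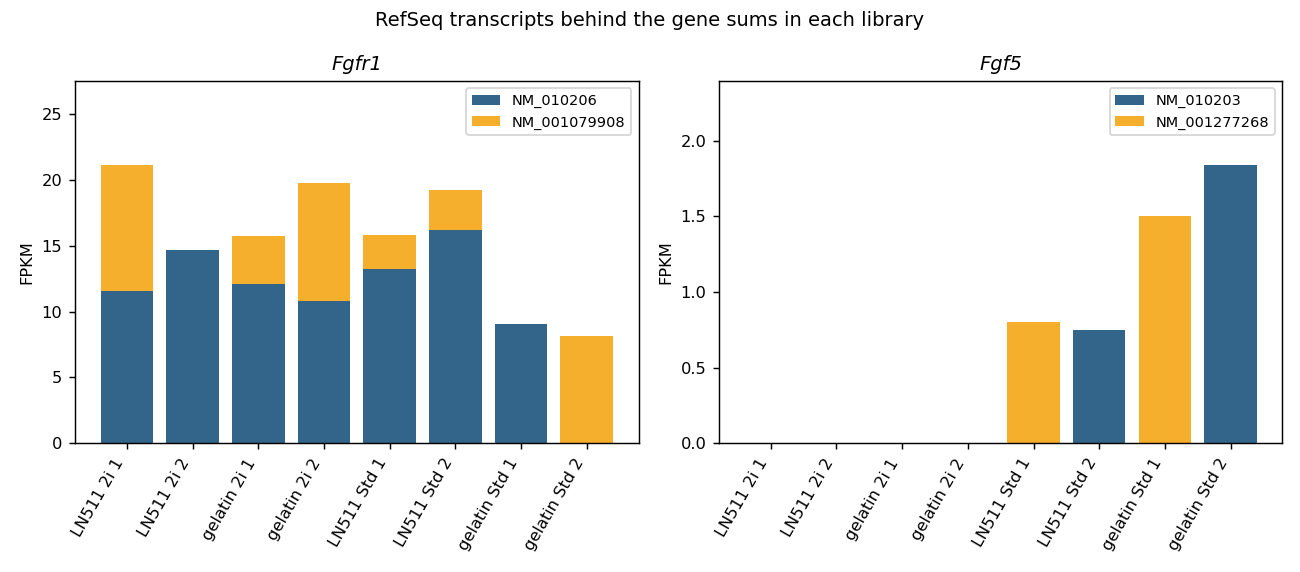
FPKM (vertical axis) of the RefSeq transcripts of Fgfr1 and Fgf5, stacked, in each of the 8 libraries (horizontal axis). Gelatin Std replicate 1 has only NM_010206 (9.04 FPKM) and replicate 2 only NM_001079908 (8.18 FPKM), and the Fgf5 replicates in Std also fall on different transcripts.

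The other receptors were near the limit of detection. Fgfr4, the receptor that FGF15 uses with the co-receptor beta-Klotho in the liver, had 0.60 and 0.40 FPKM in LN511 2i, 0.44 and 0.41 in gelatin 2i, 0.89 and 0.94 in LN511 Std, and 0.49 and 0.39 in gelatin Std. The LN511 Std libraries were above all others, with no difference past the threshold. The value was -0.35 for 2i against Std on LN511 (SE 0.15, limma adjusted p = 0.198), and 0.41 for LN511 against gelatin in Std (SE 0.15, limma adjusted p = 0.288). Klb, which encodes beta-Klotho, had 0.54 and 0.98 FPKM in LN511 2i, 0 and 1.66 in gelatin 2i, 0 and 0 in LN511 Std, and 0.13 and 0.24 in gelatin Std.

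Fgfr2, the receptor that marks the primitive endoderm lineage in the blastocyst, was at 0 and 0 FPKM in LN511 2i, 0 and 0.64 in gelatin 2i, 1.53 and 0 in LN511 Std, and 1.64 and 0 in gelatin Std. Each of the other 3 groups had 1 library at 0, and the lowest limma adjusted p was 0.496. Fgfr3 had 0.21 and 0.35 FPKM in LN511 2i, 0.41 and 0.34 in gelatin 2i, 0.62 and 0 in LN511 Std, and 0.49 and 0.13 in gelatin Std. Its groups overlapped and the lowest limma adjusted p was 0.907. Only in LN511 2i were the 3 minor receptors apart from one another, in the order Fgfr4, Fgfr3 and Fgfr2. Gata6, a primitive endoderm factor, averaged 0.23 ± 0.14 FPKM in LN511 2i, 0.18 ± 0.09 in gelatin 2i and 0.41 ± 0.24 in LN511 Std (SD, n = 2 each), and was listed at 0 in gelatin Std.

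Most other FGF ligands were not expressed at a level that could be tested. Of 13 further secreted ligands, 11 were below the filter, and Fgf2 was at 0 in all 8 libraries. Fgf10, a ligand known for signalling from mesenchyme to epithelium, had 1.47 and 1.13 FPKM in LN511 2i, 2.24 and 3.09 in gelatin 2i, 0.28 and 0.28 in LN511 Std, and 0.28 and 0.35 in gelatin Std. It rose in 2i against Std on gelatin (1.47, SE 0.26, limma adjusted p = 0.0138). That call was lost without replicate 2 of gelatin 2i (limma adjusted p = 0.0696) or either gelatin Std library (0.0587 and 0.0531). Of 4 FGF homologous factors, which stay inside the cell and do not use these receptors, 2 were tested. Fgf13 fell on both coatings, to 0.24 ± 0.34 FPKM in gelatin 2i against 2.42 ± 0.26 in gelatin Std, and to 0 in both LN511 2i libraries against 2.63 ± 0.64 in LN511 Std (SD, n = 2 each; limma adjusted p = 0.0217 and 0.00887). The Fgf13 calls were lost without replicate 2 of gelatin 2i (limma adjusted p = 0.0973), without either gelatin Std library (0.0697 and 0.0887) and, on LN511, without replicate 2 of LN511 Std (0.0517).

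The counts of called genes in the lists that follow stand beside 15.4% of all genes called for 2i against Std on gelatin and 18.5% on LN511. Among 16 co-receptors and ligand-binding proteins, 12 were tested. In 2i against Std, 2 rose and 1 fell on gelatin, and 1 rose and 3 fell on LN511. The medians were -0.11 and 0.20, beside 0.00 and -0.04 over all genes tested. The heparan sulfate carrier Sdc2 rose in both, to 16.4 ± 0.89 FPKM in gelatin 2i against 4.35 ± 1.11 in gelatin Std, and to 14.0 ± 0.24 in LN511 2i against 2.98 ± 0.95 in LN511 Std (SD, n = 2 each; limma adjusted p = 0.00692 and 0.00361). Gpc4, another such carrier, averaged 25.6 ± 3.74 FPKM in LN511 2i, 27.6 ± 1.76 in gelatin 2i, 22.3 ± 0.75 in LN511 Std and 11.1 ± 0.12 in gelatin Std (SD, n = 2 each). Like Fgfr1 it was lowest in gelatin Std, and it was called for 2i against Std on gelatin (1.24, limma adjusted p = 0.00324). Its call for LN511 against gelatin in Std (0.94, limma adjusted p = 0.0329) was lost without any single library other than those of LN511 2i, with limma adjusted p of 0.0738 to 0.148. Fgfbp1, a carrier that releases bound ligand, averaged 0.90 ± 0.13 FPKM in LN511 2i against 6.71 ± 2.67 in LN511 Std, and Sdc1 7.36 ± 2.99 against 18.4 ± 1.01 (SD, n = 2 each; limma adjusted p = 0.0149 and 0.0185). Gpc3 averaged 10.3 ± 1.81 FPKM in gelatin 2i against 19.4 ± 1.86 in gelatin Std (SD, n = 2 each; limma adjusted p = 0.0209). Each of these 3 calls was lost without 1 or more single libraries of its groups (limma adjusted p up to 0.0992). Fgfrl1, a receptor with no kinase domain, averaged 1.28 ± 0.91 FPKM in LN511 2i, 1.51 ± 0.47 in gelatin 2i, 1.27 ± 0.09 in LN511 Std and 2.67 ± 0.23 in gelatin Std (SD, n = 2 each). It was called in no comparison (limma adjusted p = 0.337 for the medium on gelatin and 0.399 for coating in Std).

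Of 11 heparan sulfate synthesis genes, 9 were tested, and 0 rose and 2 fell in 2i on each coating. The medians were 0.18 on gelatin and -0.44 on LN511, beside 0.00 and -0.04 over all genes tested, and 2 of 9 is near the share of all genes called. The genes that fell were the 6-O-sulfotransferase Hs6st2 and the chain polymerase Ext1. Hs6st2 was listed at 0 in both gelatin 2i libraries against 2.89 ± 0.79 FPKM in gelatin Std, and averaged 0.05 ± 0.07 FPKM in LN511 2i against 3.72 ± 0.77 in LN511 Std (SD, n = 2 each; limma adjusted p = 0.00654 and 0.0036). Ext1 averaged 9.63 ± 0.74 FPKM in gelatin 2i against 18.1 ± 0.88 in gelatin Std (SD, n = 2 each; limma adjusted p = 0.0216). On LN511 it averaged 11.02 ± 1.56 FPKM in 2i against 18.6 ± 1.90 in Std (SD, n = 2 each; limma adjusted p = 0.0336). The Ext1 call on gelatin was lost without any single gelatin library (limma adjusted p of 0.0688 to 0.0978), and that on LN511 without any single library other than replicate 1 of LN511 2i (0.0505 to 0.152).

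**Figure D4:**
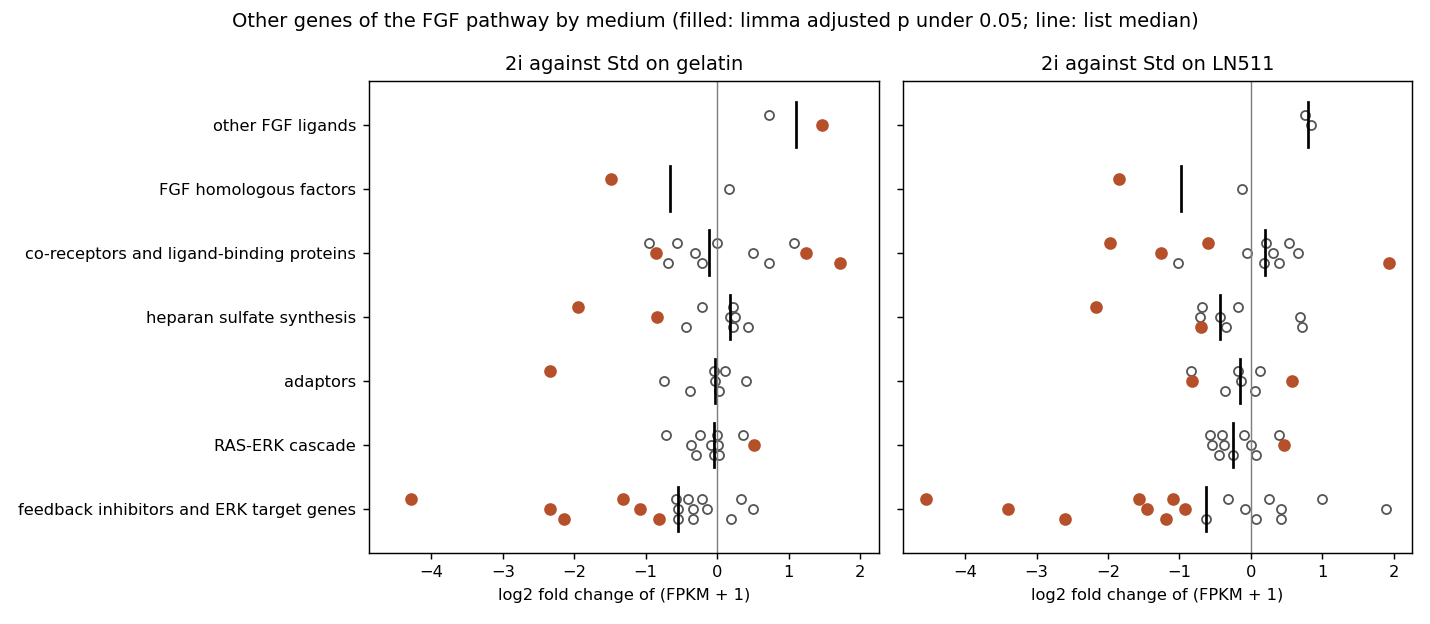
Log2 fold change of FPKM + 1 in 2i against Std (horizontal axis) for the tested members of 7 lists of FGF pathway genes (rows), on gelatin and on LN511. Points are genes, filled at a limma adjusted p under 0.05, and lines are list medians; Dusp6 lies farthest to the left, at -4.28 and -4.55.

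Below the receptors, the adaptors and the RAS-ERK cascade had few called genes, at counts near or below the share over all genes (15.4% on gelatin and 18.5% on LN511). Of 8 adaptors tested of 11, on gelatin 0 rose and 1 fell with 2i, and on LN511 1 rose and 1 fell (medians -0.04 and -0.16). Frs2, the docking protein of the receptors, averaged 1.02 ± 1.44 FPKM in gelatin 2i against 8.15 ± 3.51 in gelatin Std (SD, n = 2 each; limma adjusted p = 0.0497). That call was lost without any single library other than replicate 1 of gelatin 2i (limma adjusted p of 0.0601 to 0.211). Grb2 averaged 45.9 ± 4.07 FPKM in LN511 2i against 30.4 ± 1.58 in LN511 Std (SD, n = 2 each; limma adjusted p = 0.0245). This call was lost without replicate 2 of LN511 2i (limma adjusted p = 0.0964) or either LN511 Std library (0.0759 and 0.11). The adaptor Shc1 averaged 37.5 ± 2.04 FPKM in LN511 2i against 67.0 ± 0.53 in LN511 Std (SD, n = 2 each; limma adjusted p = 0.00736), and this call held without each library.

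Of 11 cascade genes tested of 14, 1 rose and 0 fell on each coating (medians -0.05 on gelatin and -0.26 on LN511). Map2k1, which encodes MEK1, averaged 68.3 ± 0.26 FPKM in LN511 2i against 49.1 ± 0.48 in LN511 Std (SD, n = 2 each; limma adjusted p = 0.0149). On gelatin it averaged 54.8 ± 1.27 FPKM in 2i and 56.6 ± 3.36 in Std (SD, n = 2 each; limma adjusted p = 0.782). The Map2k1 call was lost without either LN511 Std library (limma adjusted p = 0.0696 and 0.0645). Mapk3, which encodes ERK1, averaged 22.7 ± 0.76 FPKM in gelatin 2i and 38.0 ± 5.55 in gelatin Std (SD, n = 2 each; limma adjusted p = 0.166) and was not called on LN511 either (limma adjusted p = 0.35).

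The feedback inhibitors and target genes of ERK held the largest log2(FPKM + 1) change among tested genes of the 7 lists, that of Dusp6. Of 22, 17 were tested, and in 2i against Std 0 rose and 6 fell on gelatin and 0 rose and 8 fell on LN511, where 15.4% and 18.5% of all genes were called in either direction. The medians were -0.54 and -0.62, beside 0.00 and -0.04 over all genes tested. Dusp6, an ERK phosphatase, averaged 1.48 ± 0.08 FPKM in gelatin 2i against 47.4 ± 1.37 in gelatin Std (SD, n = 2 each; limma adjusted p = 0.000129). On LN511 it averaged 2.15 ± 0.89 FPKM in 2i against 71.5 ± 3.70 in Std (SD, n = 2 each; limma adjusted p = 0.000116). Spry4, a receptor signalling inhibitor, fell to 3.87 ± 0.11 FPKM in gelatin 2i against 23.6 ± 1.58 in gelatin Std, and to 1.55 ± 0.24 in LN511 2i against 25.8 ± 0.09 in LN511 Std (SD, n = 2 each; limma adjusted p = 0.000646 and 0.000154). Its relative Spry2 was not called, at 50.9 ± 3.43 FPKM in gelatin 2i and 40.3 ± 7.12 in gelatin Std (SD, n = 2 each; limma adjusted p = 0.156). The ETS factor Etv5 fell on gelatin, to 32.9 ± 0.67 FPKM in 2i against 58.8 ± 8.76 in Std (SD, n = 2 each; limma adjusted p = 0.00654), and had 71.6 ± 0.18 FPKM in LN511 2i and 68.3 ± 1.98 in LN511 Std (SD, n = 2 each; limma adjusted p = 0.742). The difference of its medium effect between coatings did not pass (limma adjusted p = 0.126). Etv4, set aside for doubtful zeros, was at 0 and 14.0 FPKM in LN511 2i, 0 and 8.86 in gelatin 2i, 45.1 and 0 in LN511 Std, and 27.5 and 0 in gelatin Std. Egr1, also set aside, was at 0 and 0 FPKM in LN511 2i and 0.13 and 0.12 in gelatin 2i. In Std, Egr1 had 18.2 and 17.5 FPKM on LN511 and 7.5 and 7.4 on gelatin.

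In LN511 against gelatin in Std, 3 genes of the 7 lists of FGF pathway genes were called, all higher on LN511. In this comparison 2.1% of all genes were called in either direction. They were Gpc4 (1 of 12 co-receptors and ligand-binding proteins tested), Shc1 (1 of 8 adaptors) and Ccnd1 (1 of 17 feedback inhibitors and ERK target genes). Ccnd1 averaged 80.0 ± 0.92 FPKM in LN511 Std against 45.4 ± 7.32 in gelatin Std (SD, n = 2 each; limma adjusted p = 0.0312). That call was lost without either LN511 Std library (limma adjusted p = 0.144 and 0.145), either gelatin 2i library (0.0754 and 0.0764) or replicate 1 of gelatin Std (0.0842). Shc1 had 67.0 ± 0.53 FPKM in LN511 Std against 38.0 ± 0.50 in gelatin Std (SD, n = 2 each; limma adjusted p = 0.0349), lost without any single library other than those of gelatin 2i (0.0517 to 0.155). In LN511 against gelatin in 2i, limma called no member of the 7 lists.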

How the data were processed

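Expression was taken from 8 libraries of 1 cell line. The authors deposited FPKM values for transcripts and for genes. TopHat2 2.1.1, Cufflinks 2.1.1 and mm10 were used, per the submitters' processing notes. No source used here gives their settings, the annotation or the strandedness. The gene table was not used as the main source, since it has rows for 5 of these 9 genes and lists Fgf4 at 0 in 6 of 8 libraries. Instead the FPKM of the RefSeq transcripts of each gene were summed, of which 31786 of 32688 matched a symbol. Another 21844 rows, of assembled transcripts, were left out, so fragments assigned to them are missing.

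A gene needed 1 FPKM or more in 2 libraries (11244 passed). A gene was set aside (966) when only 1 replicate of a group was at 0 while its partner reached 5 FPKM, or when both were at 0 while the mean of some other group reached 5 FPKM. A model with lmFit, contrasts.fit and eBayes (trend) in limma 3.58.1 (R 4.3.3) was fitted to log2(FPKM + 1) of all 8 libraries with 1 mean per group, which leaves 4 residual degrees of freedom. The fit was tested on simulated data. A group listed at 0 in both libraries adds no spread, so the error of Fgf5 and Fgf15 may be too small. The series' design text calls the replicates biological, with no word on separate cultures, so p-values measure the spread between these samples.

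The genes named were the 9 members, up to 3 called genes per list and comparison by adjusted p, the 3 genes most like each tested member (Pearson correlation, at least 5 FPKM in the highest group mean), and a panel of pathway and cell state genes. The results of 2 genes named by this rule are not reported here. The members and lists were chosen with earlier results of these data known. No pairing by replicate number was used, since deviations of same-numbered libraries correlated at -0.02 to 0.02 over all genes of the first fit. The labels do not say what a replicate number shares, and such a correlation cannot decide this for single genes. Alternatives were the gene table, a pseudocount of 0.1, no filter, doubtful zeros kept, quantile normalization, median-ratio scaling, a replicate block and leaving out each library. Coordinates, promoters and exons are from RefSeq (GRCm38.p6) and GENCODE M21.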

Additional observations from a re-analysis of the deposited data

How the results depend on the processing

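With 2 libraries a group and few fragments, Fgf5, Fgf8, Fgf15, Fgf17, Fgfr2, Fgfr3 and Fgfr4 are measured coarsely. Counts of FGF genes called in this section cover only the genes that entered the fit in question. With summed transcripts, Fgf15 and Fgf17 are therefore counted only with doubtful zeros kept. Beside leave-one-out fits, the single-gene values gave the same direction and side of the threshold in 342 of 364 cases. With the deposited gene table, limma called 295 genes for 2i against Std on gelatin, 326 on LN511, 135 for coating in Std, 54 for coating in 2i and 65 for the interaction, against 1583, 1905, 216, 2 and 19 with summed transcripts. It called 1 FGF gene on gelatin against 2, put the Fgf4 share at 49.6% in gelatin 2i and 0% in LN511 Std and gelatin Std, and turned Fgfr4 to -0.0492 for coating in Std and 0.29 for the interaction. A pseudocount of 0.1 called 1 FGF gene for the medium on LN511 against 0, called 0 genes for coating in 2i, and turned the Fgf15 interaction to -0.59. With no filter, 1 FGF gene was called for the medium on LN511, 15 genes for coating in 2i and 31 for the interaction. With doubtful zeros kept, these were 2, 42 and 53. Median-ratio scaling turned Fgfr1 to -0.00751 for coating in 2i, and quantile normalization turned Fgfr4 to 0.0912 for the medium on gelatin. The cause of these changes was not tested.

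With the replicate block, limma called 1 FGF gene for 2i against Std on gelatin, with Fgfr1 at 0.96 (limma adjusted p = 0.0595), and 80, 0 and 1 genes for coating in Std, coating in 2i and the interaction. Whether same-numbered libraries share anything is not given in the labels.

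Leaving out each library in turn, limma called 648 to 1516 genes for the medium on gelatin, 861 to 1625 on LN511, 9 to 199 for coating in Std, 0 to 12 for coating in 2i and 0 to 11 for the interaction. For the medium on gelatin, the log2 value ranged over 0.80 to 1.11 for Fgfr1 and -1.51 to -1.32 for Fgf5. For Fgf15, tested with doubtful zeros kept, it ranged over -2.57 to -2.42 on gelatin and -1.93 to -1.83 on LN511. Fgfr1 ranged over -0.23 to 0.27 for the medium on LN511 and -0.25 to 0.25 for coating in 2i. Fgfr4 ranged over -0.0624 to 0.0343 for the medium on gelatin and -0.0214 to 0.163 for coating in 2i.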
